A study of Mus musculus with 8 samples.

Results

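The genes described are 10 early response genes of mouse embryonic stem cells, measured by 14 of the 45101 probe sets of an Affymetrix expression array. They were chosen by name, with earlier results of these data known. A probe set was included where its only gene symbol in the platform annotation was Fos, Fosb, Fosl1, Fosl2, Jun, Junb, Jund, Egr1, Ier2 or Ier3. In all, 18194 genes were named in this way, and 14267 passed a filter on low values. All 10 members passed it, Fosl1 through the samples where it was higher.

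Immediate early genes are transcribed within minutes of a growth factor, stress or contact signal, without new protein synthesis, and their transcripts are short-lived. Fos and Jun family proteins pair through leucine zippers into AP-1, a transcription factor that binds DNA next to genes of growth, adhesion and matrix turnover. ERK and JNK kinases switch many immediate early genes on through factors already bound at their promoters.

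The 8 arrays held RNA of stem cells from the cross 129X1 x 129S1. Cells with a short hairpin against Top1 (shTop1) or p53 (shp53) made up 20% of the cells, or of the RNA, that was combined, and mock cells the rest (1:4). In the shTop1 coculture and the shp53 coculture both kinds of cell shared a dish for 4 days. In the shTop1 mix and the shp53 mix, which the labels call controls, each kind was grown alone for 4 days and the RNA was pooled afterwards. Each of the 4 groups had 2 arrays, labelled biological replicates. Nothing says whether these came from separate thaws or whether mixes shared mock RNA, so each p-value covers no more than the spread among these arrays. The share of knockdown cells after 4 days in a dish was not measured, and fewer cells of a kind cannot be told apart from less RNA per cell.

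The arrays had mean signals of 812 to 896. After quantile normalization Top1 gave signals of 5110 to 5316 in the 4 shTop1 arrays and 5456 to 5886 in the 4 shp53 arrays, without overlap. The two-sided exact permutation p was 0.0286, the smallest that 4 against 4 arrays allow (limma adjusted p = 0.999 over all genes). shTop1 coculture replicate 1 stood apart on the second principal component, at 32.6 against -15.5 to 3.63 for the others, and values without it are given where they bear on a member. All 10 stem cell markers listed, Pou5f1, Nanog and Sox2 among them, lay above the 93rd percentile of brightness on these arrays.

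Between coculture and mix, averaged over both knockdowns, the early response genes did not move as a block. Fos and Ier3 had a higher signal in all 4 cocultures than in any of the 4 mixes, and Ier2 a lower one in all 4, except that Ier2 overlapped with median centring of the arrays (2 members without overlap). The other 7 members overlapped between the conditions. No member passed limma's test, and neither did any other gene: 0 of 14267 (0%) had an adjusted p under 0.05. At an unadjusted p under 0.05 stood Fos and Ier3, both on the higher side, against 11.7% of all genes (7.09% higher and 4.63% lower). Fosl1 is left out of these counts, since it passed the filter on low values through the mixes alone. Groups without overlap, cocultures above mixes, occurred in 5.75% of all genes, and cocultures below mixes in 3.35%. In all, 4 of 10 members had a log2 difference above 0, against 55.3% of all genes, and with median centring 6 of 10, against 64.5%. Both of these sign counts hold Fosl1 among the members below 0, although it passed the filter through the mixes. Of the genes at an unadjusted p under 0.05, 60.5% were on the higher side, and 72.4% with median centring. The members' median, Fosl1 included, was -0.015 and that of all genes 0.022. Log2 differences are coculture minus mix on log2(signal + 16) after quantile normalization, and the constant of 16 shrinks them for dim genes.

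**Figure D1:**
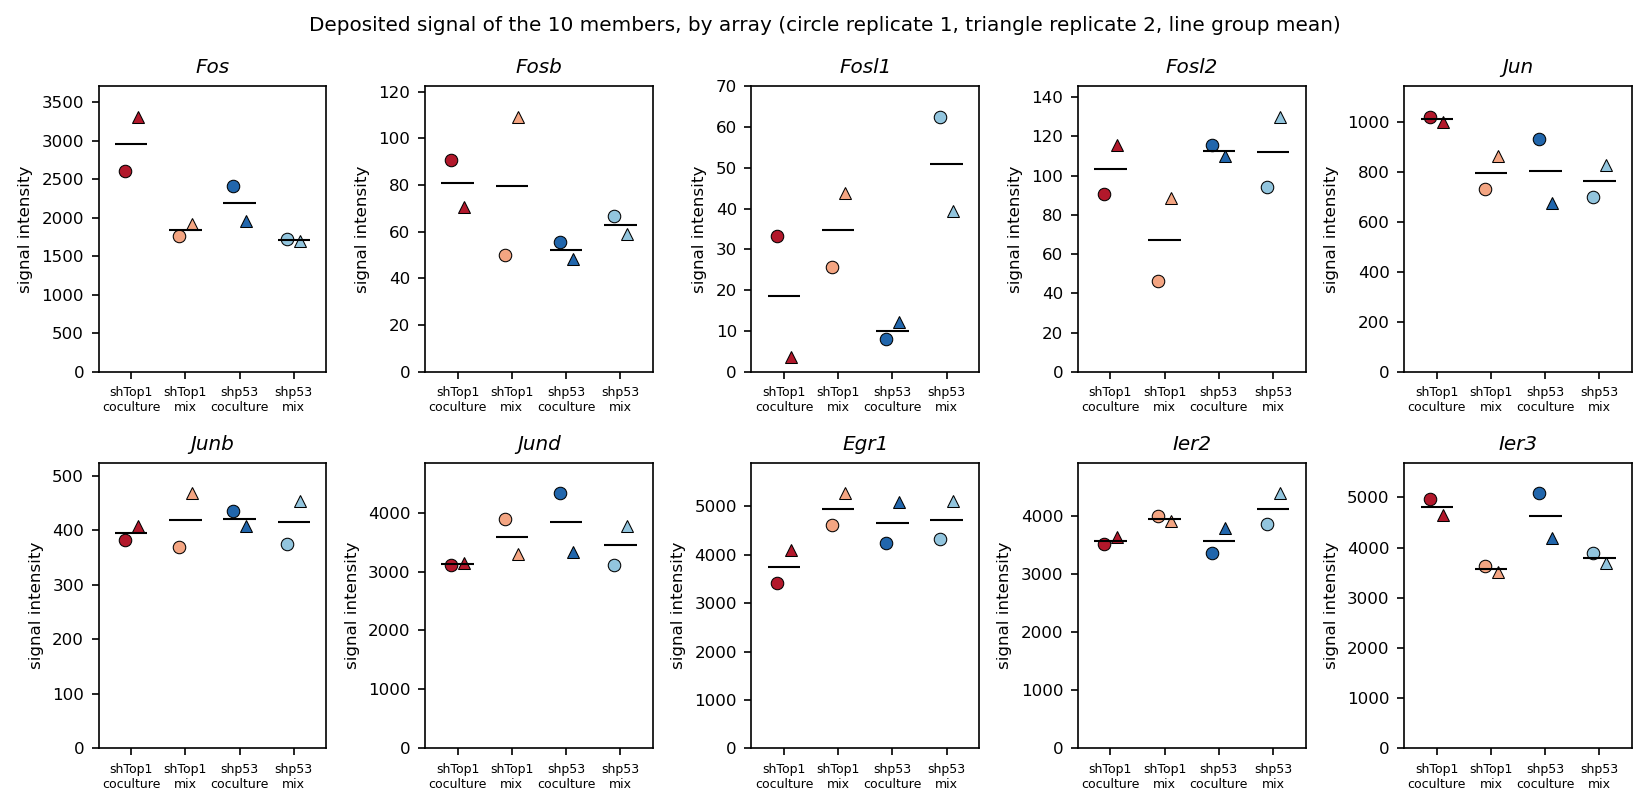
Deposited signal intensity (linear axis from 0, arbitrary units) of the probe set used for each of the 10 members, by group. Circles are replicate 1, triangles replicate 2 and lines group means (n = 2 each). The Fos and Ier3 points of both cocultures lie above all mix points, and the Ier2 points below them.

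Fos, the founding subunit of AP-1, gave deposited signals of 2601 and 3309.9 in the shTop1 coculture, against 1759 and 1917 in the shTop1 mix. In the shp53 coculture it gave 2412 and 1956, against 1719 and 1699 in the shp53 mix. The 4 mixes lay close together, while the cocultures spread widely, and shp53 coculture replicate 2 was only just above the highest mix. Over both knockdowns Fos averaged 2569.6 ± 563 in coculture and 1774 ± 99.0 in the mixes (SD, n = 4 each). The fitted log2 difference was 0.50 ± 0.11 (SE), a ratio of 1.42 with a 95% interval of 1.17 to 1.71. It did not pass over all genes (limma adjusted p = 0.333, unadjusted p = 0.0042), and ranked 174th by p among the 14267. The exact permutation p was 0.0286. Leaving out any 1 array gave 0.42 to 0.59, and 0.59 without shTop1 coculture replicate 1.

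Fosl1, which encodes Fra-1, an AP-1 subunit without the activation domain of Fos, stood on the other side and close to background. Its brighter probe set gave 33.4 and 3.74 in the shTop1 coculture, against 25.8 and 43.7 in the shTop1 mix. It gave 7.99 and 12.2 in the shp53 coculture, against 62.6 and 39.5 in the shp53 mix. The shp53 groups were well apart on this scale, but shTop1 coculture replicate 1 lay inside the range of the mixes. Its mean log2 value of 5.33 lay just above the filter of 5.25, at the 31.8th percentile of all probe sets. The mean was 4.83 in the cocultures, under the filter, and 5.83 in the mixes, so that Fosl1 passed through the mixes. Its log2 difference of -0.99 is therefore given as a description, with no test. Without shTop1 coculture replicate 1 the value was -1.31, and without replicate 2 of that group -0.68. The other Fosl1 probe set was under the filter and gave 3.11 and 15.6 in the shTop1 coculture, against 17.3 and 23.6 in the shTop1 mix. In the shp53 samples it gave 25.3 and 20.3 in coculture, against 56.7 and 5.03 in the mix. Its groups overlapped, with a log2 difference of -0.24 that was not tested over all genes (exact permutation p = 0.543).

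Fosb, a subunit close to Fos, and Fosl2, which encodes Fra-2, were both dim, at the 50.7th and 56.4th percentiles. Fosb gave 90.9 and 70.7 in the shTop1 coculture, against 50.01 and 109 in the shTop1 mix. It gave 55.5 and 48.4 in the shp53 coculture, against 66.9 and 59.0 in the shp53 mix. The 2 arrays of the shTop1 mix spanned all other values of Fosb but 1, and the log2 difference was -0.015 with a 95% interval of -0.50 to 0.47. Fosl2 gave 90.8 and 116 in the shTop1 coculture, against 46.2 and 88.6 in the shTop1 mix. It gave 116 and 110.0 in the shp53 coculture, against 94.4 and 130.1 in the shp53 mix. The shTop1 coculture arrays lay above their mix and the shp53 arrays overlapped, for a log2 difference of 0.33 ± 0.19 (SE, limma adjusted p = 0.529). It was 0.16 without shTop1 mix replicate 1, 0.50 without shTop1 mix replicate 2 and 0.085 with its probe sets averaged. The other Fosl2 probe set pointed the other way, at -0.16 with overlapping groups (54.0 to 71.6 in cocultures and 66.9 to 84.3 in mixes).

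Among the Jun proteins, which bind DNA as pairs with each other or with a Fos partner, none was separated by condition. Jun itself gave 1023 and 1000.3 in the shTop1 coculture, against 733 and 863 in the shTop1 mix. It gave 934 and 678 in the shp53 coculture, against 700.4 and 827 in the shp53 mix. As for Fos, shp53 coculture replicate 2 was the lowest coculture array, and for Jun it lay below all 4 mixes. The log2 difference was 0.21 ± 0.12 (SE, limma adjusted p = 0.535), and 0.32 without that array, when the remaining 3 cocultures lay above all 4 mixes. Without shp53 coculture replicate 1 it was 0.11, and with the probe sets of Jun averaged 0.035. A dimmer Jun probe set had a log2 difference of -0.14, with 93.7 to 96.8 in cocultures and 90.6 to 123 in mixes, so that Jun's 2 probe sets differed in direction.

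Junb, often an antagonist of Jun in growth control, gave 381 and 408 in the shTop1 coculture, against 369.6 and 468 in the shTop1 mix. It gave 435 and 407 in the shp53 coculture, against 376 and 453 in the shp53 mix. The cocultures lay within the range of the mixes, and the log2 difference was -0.014 (95% interval -0.26 to 0.23), or 0.034 with median centring. Jund, the Jun protein that many resting cells hold at a steady level, gave 3104 and 3138 in the shTop1 coculture, against 3894 and 3293 in the shTop1 mix. It gave 4330.5 and 3336 in the shp53 coculture, against 3119 and 3776 in the shp53 mix. Both shTop1 cocultures lay below both shTop1 mixes, and the shp53 groups overlapped. The mean log2 difference was -0.031 (95% interval -0.32 to 0.26), or 0.032 with median centring. The dim second Jund probe set had 0.15 with overlapping groups, 37.2 to 59.6 in cocultures and 33.02 to 64.3 in mixes.

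**Figure D2:**
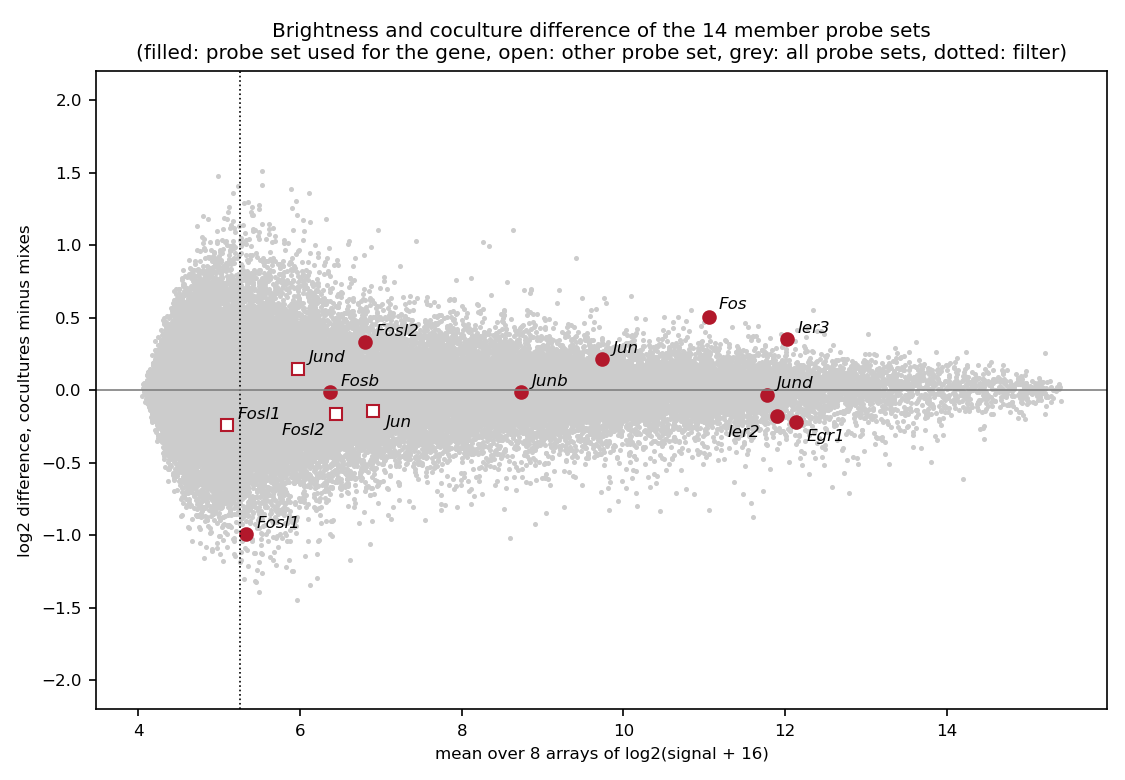
Log2 difference of cocultures minus mixes (4 arrays each) against the mean of log2(signal + 16) over the 8 arrays. Filled circles are the probe sets used for the 10 genes, open squares the other 4 member probe sets, grey points all probe sets, and the dotted line the filter at 5.25. Fos and Ier3 lie near the upper edge of the cloud for their brightness, and Fosl1 lies beside the filter where the cloud is widest.

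Ier3, a stress and growth factor response gene whose product is known to act on ERK signalling and cell survival, gave 4957 and 4655 in the shTop1 coculture, against 3627 and 3512 in the shTop1 mix. In the shp53 samples it gave 5084 and 4191 in coculture, against 3887 and 3692 in the mix. All 4 cocultures were above all 4 mixes, and the lowest coculture was again shp53 replicate 2. Over both knockdowns Ier3 averaged 4722 ± 397 in coculture and 3679 ± 157 in the mixes (SD, n = 4 each). The log2 difference was 0.35 ± 0.09 (SE), a ratio of 1.28 with a 95% interval of 1.10 to 1.48 (limma adjusted p = 0.345, exact permutation p = 0.0286). Leaving out any 1 array gave 0.28 to 0.42.

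Ier2, which encodes a small nuclear protein of the early growth response, gave 3524 and 3633 in the shTop1 coculture, against 3996 and 3919 in the shTop1 mix. It gave 3366 and 3792 in the shp53 coculture, against 3861 and 4397 in the shp53 mix. All 4 cocultures were below all 4 mixes, by a small margin in shp53 coculture replicate 2. Means were 3579 ± 179 in coculture and 4043 ± 242 in the mixes (SD, n = 4 each). The log2 difference was -0.18 ± 0.08 (SE), with a 95% interval of -0.38 to 0.019 that includes 0 (limma adjusted p = 0.455, exact permutation p = 0.0286).

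Egr1, a zinc finger transcription factor that ERK activity induces, gave 3412 and 4090.3 in the shTop1 coculture, against 4618 and 5272 in the shTop1 mix. It gave 4242 and 5086 in the shp53 coculture, against 4322 and 5114 in the shp53 mix. The shTop1 cocultures lay below all 4 mixes, while the shp53 cocultures overlapped with them. The mean log2 difference was -0.22 ± 0.12 (SE, limma adjusted p = 0.513), and -0.15 without shTop1 coculture replicate 1. Thus Fos, Ier3, Ier2 and Egr1, all in the brightest 10% of probe sets, stood on both sides of 0.

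Fos and Ier3 are the members that were higher in every coculture, and their upstream sequences are shown for that reason. RefSeq promoter tables (GRCm38.p6) held 7 of the 10 members, without Fosl1, Egr1 and Ier2. The 250 bases before the start of Fos (chr12:85473640-85473889, + strand) and of Ier3 (chr17:35821463-35821712, + strand) read as follows, with the letters TATAA (core of the TATA box) and TGACG (core of the cAMP response element) in capitals.
Fos: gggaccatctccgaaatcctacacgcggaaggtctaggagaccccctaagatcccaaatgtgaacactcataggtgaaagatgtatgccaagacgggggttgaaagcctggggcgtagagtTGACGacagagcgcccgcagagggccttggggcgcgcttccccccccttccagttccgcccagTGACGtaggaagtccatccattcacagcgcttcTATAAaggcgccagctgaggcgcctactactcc
Ier3: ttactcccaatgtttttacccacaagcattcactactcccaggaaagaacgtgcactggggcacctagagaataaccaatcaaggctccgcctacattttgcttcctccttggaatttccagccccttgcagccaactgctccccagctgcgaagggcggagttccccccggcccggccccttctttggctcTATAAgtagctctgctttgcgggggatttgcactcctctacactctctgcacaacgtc
Both strands were searched. TGACG stood before Fos at 2 places, 66 and 129 bases upstream of the start, also before Fosb and Junb, and before 17.8% of all 32851 promoters in the table. TATAA stood 33 bases upstream of the start of Fos and 58 bases upstream of that of Ier3, so at unlike distances. It stood before 22.8% of all promoters. The AP-1 site TGANTCA (6.75% of all promoters), the full element TGACGTCA (1.55%) and the CArG box, bound by serum response factor (1.47%), were not among the letters of any of the 7 windows. TGACG lies within TGACGTCA, and TATAA can lie within a CArG box. Only these 250 bases were searched, so the absence of a site here says nothing about sites farther upstream. A match of letters is no sign that a factor was bound in these cells.

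By knockdown, the coculture differences of Fos and Ier3 had the same sign in both lines. With shTop1 the log2 difference was 0.68 ± 0.16 for Fos (limma adjusted p = 0.527) and 0.42 ± 0.12 for Ier3 (adjusted p = 0.574). With shp53 it was 0.33 ± 0.16 for Fos (adjusted p = 0.749) and 0.29 ± 0.12 for Ier3 (adjusted p = 0.734), all with SE and n = 2 each. Fosl1 had -0.69 with shTop1 and -1.30 with shp53, not tested. Its shTop1 value was -1.32 without coculture replicate 1 and -0.059 without coculture replicate 2. Ier2 had -0.16 ± 0.12 with shTop1 and -0.20 ± 0.12 with shp53. Jun had 0.37 ± 0.17 with shTop1 and 0.060 ± 0.17 with shp53, and Fosl2 0.59 ± 0.27 and 0.076 ± 0.27. Egr1 had -0.41 ± 0.17 with shTop1 and -0.026 ± 0.17 with shp53. Its shTop1 value was -0.27 without coculture replicate 1. Jund had -0.21 ± 0.17 with shTop1 and 0.14 ± 0.17 with shp53. Fosb (0.14 and -0.17) and Junb (-0.054 and 0.026) also differed in sign between the lines, within errors of 0.28 and 0.14.

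No gene passed limma's test in either line, 0 of 14267 (0%) each. At an unadjusted p under 0.05 stood Fos and Ier3 with shTop1, against 8.2% of all genes. With shp53 none of the members stood there, leaving out Fosl1, against 6.86% of all genes. The difference of the coculture differences, shTop1 minus shp53, was 0.35 for Fos (95% interval -0.20 to 0.90), -0.39 for Egr1 (-0.97 to 0.20) and -0.35 for Jund (-0.94 to 0.23). These were the members with the smallest p. Without shTop1 coculture replicate 1 the difference was 0.52 for Fos and -0.24 for Egr1. With all 8 arrays no gene passed the test of this difference, 0 of 14267 (0%). At an unadjusted p under 0.05 stood none of the members, leaving out Fosl1, against 4.3% of all genes. The intervals are wide enough to hold both no difference and one as large in size as the coculture difference of Fos itself.

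**Figure D3:**
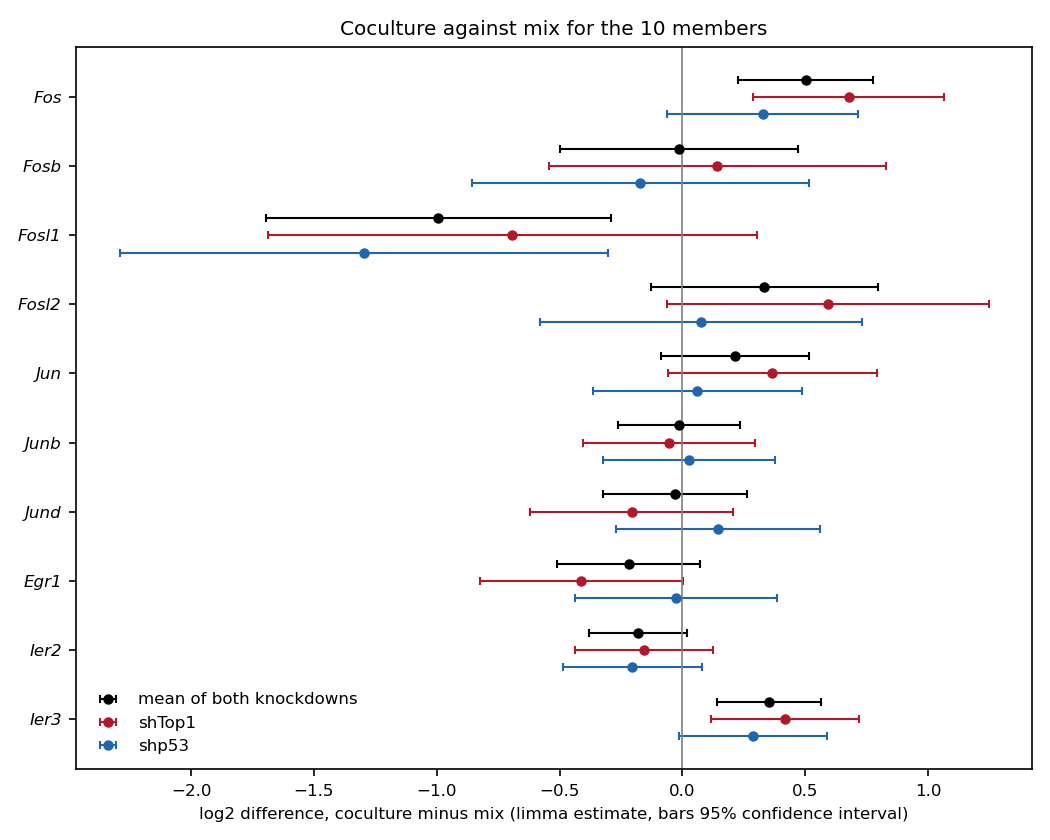
Log2 difference of coculture minus mix for the 10 members, as limma estimates with 95% confidence intervals. Black is the mean of both knockdowns (4 arrays a side), red shTop1 and blue shp53 (2 arrays a side). The mean intervals of Fos and Ier3 exclude 0 before adjustment over all genes, that of Fosl1 is no test since it passed the filter through the mixes, and the shTop1 and shp53 intervals of each member overlap.

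Between the knockdown lines, averaged over both conditions, no member was separated and no gene passed, 0 of 14267 (0%). At an unadjusted p under 0.05 stood 0 of 10 members, against 4.7% of all genes. The members with the smallest p were Fos, at a log2 difference of 0.26 ± 0.11 for shTop1 minus shp53, Fosb at 0.44 ± 0.20 and Jun at 0.20 ± 0.12 (SE, n = 4 each, limma adjusted p = 0.999 for all of them). Fos had its highest values in the shTop1 coculture, while its shTop1 and shp53 mixes differed by little (1759 and 1917 against 1719 and 1699).

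Across the 8 arrays the gene whose log2 values followed Fos most closely was Ugp2, which makes UDP-glucose (Pearson r = 0.980, Spearman rho = 0.976), then Efcab10 (r = 0.976) and Vps72, a histone exchange subunit (r = 0.967). For Fosl1 they were 2410004B18Rik (r = 0.978), the ribosome assembly factor Rpf2 (r = 0.969) and Pkd2l1 (r = 0.969). Fosl1 itself was close to background and passed the filter through the mixes, and Pkd2l1 was as dim, at the 32.4th percentile. With 8 arrays and 14266 genes compared such values are a description, and 57 genes reached r = 0.9 with Fos and 109 with Fosl1. Among the members, Fos had r = 0.799 with Jun, 0.791 with Ier3 and -0.732 with Ier2, over the same 8 arrays, which share the coculture and mix split.

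Other immediate early genes, a list of 38 that leaves out the members, had most of their differences above 0. The list was chosen with earlier results of these data known, so its counts are only a description. Of 35 tested, 28 had a log2 difference above 0, against 55.3% of all genes, with a median of 0.12 against 0.022. None passed over all genes. At an unadjusted p under 0.05 stood 7 on the higher side, against 7.09% of all genes, and 1 on the lower, against 4.63%. Those of smallest p were the stress kinase gene Plk3 (0.32 ± 0.07) and Nfil3, a bZIP repressor (0.62 ± 0.15, SE, limma adjusted p 0.333 and 0.345). Both were above all mixes in all 4 cocultures, as were Klf10, Dusp1, Tiparp and Klf6 and 5.75% of all genes. Sgk1 and Klf4 were below all mixes in all 4 cocultures, as were 3.35% of all genes. Chosen after their values were seen, the others on the higher side were the clock gene Per1 (0.40), Klf10 (0.27), the MAP kinase phosphatase gene Dusp1 (0.25), Tiparp (0.19) and Gadd45b (0.27), and Myc stood on the lower side (-0.82). Dusp6, a feedback phosphatase of ERK, had -0.32, and Egr2 and Egr3, relatives of Egr1, had 0.17 and 0.032. The list's median ranged from 0.066 to 0.16 over the other settings and from 0.074 to 0.11 leaving out 1 array. Its count above 0 was 24 of 35 with the authors' scaling alone, where 52.7% of all genes lay above 0.

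**Figure D4:**
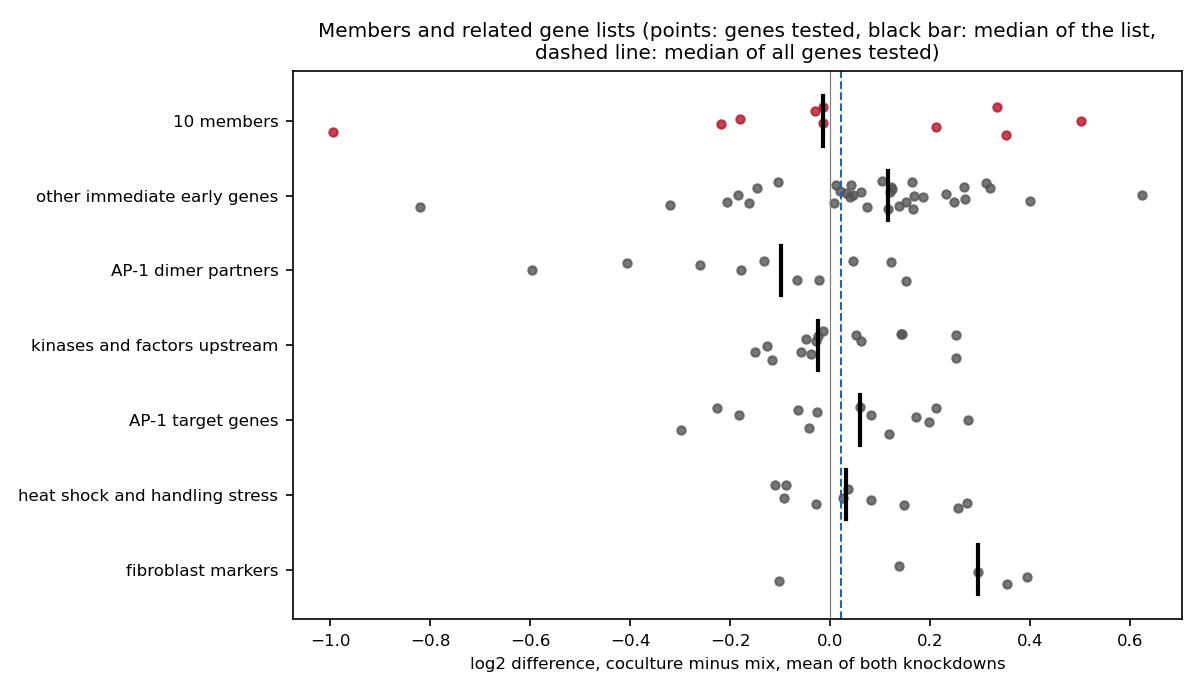
Log2 difference of coculture minus mix, mean of both knockdowns, for the tested genes of the member set and of 6 related lists (points, spread vertically for display). Black bars are list medians and the dashed line the median of all genes, 0.022. The members spread on both sides of 0, and 28 of the 35 other immediate early genes lie above it. Members and lists were chosen with earlier results of these data known.

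AP-1 dimer partners outside the Fos and Jun families stood on both sides of 0. Of 10 tested, 3 were above 0, against 55.3% of all genes, with a median of -0.099. At an unadjusted p under 0.05 stood 0 of them, against 11.7% of all genes. Those of smallest p were the small Maf gene Mafg (-0.18 ± 0.08) and Batf3 (-0.60 ± 0.27, SE). Above 0 were Jdp2 (0.15), Maff (0.12) and Atf3 (0.046), named after their values were seen. With shTop1 alone 5 of 10 were above 0, against 55.6% of all genes, with a median of 0.034. Of 15 upstream kinases and factors, 6 were above 0, against 55.3% of all genes, with a median of -0.025. Under median centring 10 were, against 64.5%, with a median of 0.030. In the setting used, 1 of the 15 stood at an unadjusted p under 0.05, against 11.7% of all genes. The JNK gene Mapk8 (0.25 ± 0.08, unadjusted p = 0.0159) and the ERK target Elk1 (0.25 ± 0.11, SE) had the smallest p. Srf, the factor that binds CArG boxes, had -0.048. Of 13 known AP-1 target genes, 7 were above 0, against 55.3% of all genes, with a median of 0.060. Ccnd1, which encodes cyclin D1, had -0.30 ± 0.07 and the cytokine gene Lif 0.28 ± 0.09 (SE, limma adjusted p 0.333 and 0.375). None of these genes passed over all genes.

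Heat shock genes, which stress of cells induces, were read beside them. Of 10, 6 were above 0, against 55.3% of all genes, with a median of 0.031. The count was 9 with median centring (median 0.14), against 64.5% of all genes. It was 9 with the authors' scaling alone (median 0.085), against 52.7%. Their summed signal was 130172 to 138792 in cocultures and 135233 to 142020 in mixes, with overlap. Dnajb1, a chaperone partner, had 0.27 ± 0.09 and Hspa8 -0.11 ± 0.07 (SE). Markers of other cell types were read too. The summed signal of 11 fibroblast markers was 717 to 794 in the 4 cocultures and 535 to 675 in the 4 mixes, without overlap. This is a description only, since the list was chosen with earlier results of these data known. Thy1 and Pdgfrb were the brightest of the 11, with mean signals of 191 and 256, and weighed most in the sum. Of the 11 markers 5 reached the filter, and those of smallest p were Thy1 (0.35 ± 0.09) and Col1a2 (0.39 ± 0.17, SE). Col1a2 turned to -0.085 with its probe sets averaged, and Col6a3, named after its value was seen, had -0.10. Without a filter 6 of the 11 were above 0, and Dcn, Lum, Postn, Fap, Twist2 and Col3a1 stayed under the filter. The part of fibroblasts in the values of Fos and Ier3 was not tested. Sums over the primitive endoderm, trophectoderm, neural and stem cell markers overlapped between cocultures and mixes. By gene, 10 of 10 primitive endoderm markers were above 0, against 55.3% of all genes, with a median of 0.13. With shp53 alone 10 of 10 were, against 53%, and with shTop1 alone 7 of 10, against 55.6%. In the mean comparison 0 of these markers stood at an unadjusted p under 0.05, against 11.7% of all genes. The part of these markers in the values of Fos and Ier3 was not tested. The named genes of these lists were Amn (0.16) and Foxa2 (0.27), Ascl2 (0.16) and Hand1 (0.23), Sox1 (-0.99) and Nes (0.10), and Zfp42 (-0.28) and Fgf4 (0.21). None passed over all genes.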

How the data were processed

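Per the sample labels, the material for each array was total RNA, and biotin was used for labelling. The authors deposited 1 linear signal intensity per probe set and array. No source used here names the summarization tool. Without the top and bottom 2% of values, the deposited intensities average about 500.003 on every array, which shows a common scaling. On each array 21.1% to 25.6% of values were under 16.

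The platform annotation, with symbols updated through gene identifiers, paired 34958 of the 45101 probe sets with 1 gene, 932 with several, and did not list 9211. After quantile normalization between arrays the scale was log2(value + 16), and a gene was read from its brightest probe set by mean. A gene was tested if this mean was at or over the 30th percentile (log2 value 5.25, a signal of 22.1). Signals of the members printed per array are as deposited, while the signals of Top1 and the sums over marker lists are normalized.

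The model, in limma 3.58.1 and R 4.3.3, had a mean for each of the 4 groups and used all 8 arrays (lmFit and eBayes, 4 residual degrees of freedom). Tests were two-sided, with Benjamini-Hochberg adjustment across all genes within each of 5 comparisons and a threshold of 0.05. Permutation tests were exact and two-sided over 4 against 4 arrays. Data were simulated for the mean comparison over 14267 genes with normal noise, independent between genes. Log2 changes of 0.5, 1, 2 and 3 were given to 50 genes each, all together. Recovery was 28% for a change of 0.5, 72% for 1 and 88% for 2, and 6 unchanged genes were called. Large changes ease the adjustment for small ones, and the arrays themselves gave 0 calls, so the rate for 0.5 may be too high.

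All 14 member probe sets were described. From each of the 10 lists of related genes (149 entries) the 2 of smallest p in the mean coculture comparison were named, and for Fos and Fosl1 the 3 genes of highest Pearson correlation. Members and lists were chosen with earlier results of these data known. Alternatives tried were a replicate block, 2 other scalings, 2 other filters, 2 other treatments of probe sets, trended and robust variances, only the arrays of 1 knockdown, pseudocounts of 1 and 64, and leaving out each array.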

Additional observations from a re-analysis of the deposited data

How the results depend on the processing

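With a replicate block, under the 2 other scalings, 2 other filters, 2 other treatments of probe sets and 2 other pseudocounts, with only the arrays of 1 knockdown, and without any 1 array, limma called 0 genes in each comparison fitted. With trended and robust variances it called 31 genes in the mean coculture comparison, 3 with shTop1 and 1 with shp53. Fos was then past the threshold (adjusted p = 0.0496, and up to 0.603 in the other settings), Ier3 was not (0.0615). Over all genes, arrays with the same replicate number did not deviate together (correlations of -0.0067 to 0.051). The numbers were therefore not taken as pairs, and the block left 0 calls. Egr1, named after its values were seen, was higher in replicate 2 than in replicate 1 in all 4 groups. Its unadjusted limma p was 0.021 with the block and 0.116 without it in the mean comparison. With shTop1 these were 0.0070 and 0.0501, and for the difference of coculture differences 0.033 and 0.157. For Fosl2 with shTop1 they were 0.028 and 0.070. The number of members without overlap was 3 to 5 leaving out 1 array, and 5 without shp53 coculture replicate 2, when Jun (higher) and Egr1 (lower) joined. With that array left out 13.8% of all genes had no overlap, against 9.1% with all arrays and 11.3% to 17.1% over all choices of the array left out. With median centring the share of genes on the higher side among those at an unadjusted p under 0.05 was 72.4%, against 60.5% in the setting used.

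Some values changed sign, Col1a2 (0.39 in the setting used) among them. With median centring Junb had 0.034, Jund 0.032 and Egr1 with shp53 0.037. Hspa8 had 0.096, and 0.039 with the authors' scaling. With probe sets of a gene averaged, Jund had 0.059, and with shTop1 0.021, Fosl2 with shp53 -0.050, Jun with shp53 -0.0063, Mafg 0.0041, Col1a2 -0.085 and Nes -0.22. Leaving out 1 array, ranges in the mean comparison were -0.23 to 0.20 for Fosb, -0.093 to 0.064 for Junb, -0.12 to 0.060 for Jund and -0.045 to 0.25 for Nes. With shTop1 they were -0.29 to 0.57 for Fosb and -0.21 to 0.10 for Junb. With shp53 they were -0.17 to 0.32 for Fosl2, -0.15 to 0.27 for Jun, -0.091 to 0.14 for Junb, -0.037 to 0.33 for Jund and -0.15 to 0.10 for Egr1. Causes were not tested. Fosl1 could not be tested with the filter at the 50th percentile or with its probe sets averaged, and ranged from -1.78 with a pseudocount of 1 to -0.44 with 64. The number of arrays limits the precision.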

Other observations

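In the comparison of shTop1 with shp53 over both conditions, all 10 tested AP-1 dimer partners outside the Fos and Jun families had a log2 difference below 0, as did 51.3% of all genes, with a median of -0.11 against -0.0036 for all genes. None passed over all genes, and 1 stood on the lower side at an unadjusted p under 0.05, as did 2.29% of all genes. Primitive endoderm markers had 9 of 10 below 0, with 2 at an unadjusted p under 0.05, and fibroblast markers 4 of 5. Upstream kinases and factors, 15 tested, had 8 below 0 and a median of -0.010, and other immediate early genes had 23 of 35 below 0 and a median of -0.019. AP-1 target genes had 8 of 13 below 0, and stem cell markers 5 of 10. On the other side, heat shock genes had 9 of 10 above 0 with a median of 0.073, against 48.7% of all genes. Trophectoderm markers had 4 of 7 above 0 and neural markers 3 of 5. The dimer partners were picked for mention after all 10 lists and 5 comparisons were seen.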
